A study of Homo sapiens with 6 samples.

Results

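The matrix metalloproteinase (MMP), ADAMTS, ADAMTS-like (ADAMTSL) and tissue inhibitor of metalloproteinases (TIMP) genes were followed through RNA sequencing of human cardiomyocytes exposed to alcohol, with and without losartan. Genes were taken by their symbol in the deposited series table. The symbol rule uses no measured value, but it was chosen with earlier results of these data known. The rule found 44 of the 21134 genes listed, namely 16 MMP, 19 ADAMTS, 5 ADAMTSL and 4 TIMP genes. The cells were hiPSC-CMs, which the labels describe as human induced pluripotent stem cell-derived cardiomyocytes and assign to the line H9, a name that belongs to a line of human embryonic stem cells. There were 2 control libraries of cells with no treatment, 2 libraries of cells that received 100 mM alcohol for 24 h, and 2 libraries of cells that received 100 mM alcohol and 1 μM losartan for 24 h (hereafter co-treated). Losartan is a blocker of the angiotensin II type 1 receptor. The set has no library of losartan alone, all cells came from 1 line in culture, and the sources used here do not say whether the 2 replicates of a group were separate cultures, so p-values measure only the spread between these libraries, which may be technical.

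MMPs are zinc-dependent enzymes that are made as inactive precursors and, once activated, cut collagens and other proteins of the extracellular matrix. ADAMTS enzymes are secreted relatives that trim proteoglycans, procollagens and microfibrils, the ADAMTSL proteins share their ancillary domains but lack the catalytic domain, and TIMPs bind the active enzymes and block them. In the heart these genes are known for their part in matrix turnover after injury, and much of that activity comes from fibroblasts and leukocytes as well as from myocytes.

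Promoter sequence was available for 28 of the 44 genes (29 windows) in the RefSeq table of GRCh38.p14, and the 250 bases before the transcription start are shown for 4 of them. ADAMTSL4 and ADAMTS19 are shown because they had the lowest p-values against control among the protein-coding members, MMP15 because it had the highest level, and MMP10 as a member at or below 3 counts in every library. The windows are chr1:150549158-150549407 (plus strand), chr5:129460048-129460297 (plus strand), chr16:58025504-58025753 (plus strand) and chr11:102780629-102780878 (minus strand) in that order. Capitals mark the GC box GGGCGG, the AP-1 site TGANTCA and the TATA box TATAAA, each searched on both strands, so that a GC box on the other strand reads CCGCCC.
ADAMTSL4: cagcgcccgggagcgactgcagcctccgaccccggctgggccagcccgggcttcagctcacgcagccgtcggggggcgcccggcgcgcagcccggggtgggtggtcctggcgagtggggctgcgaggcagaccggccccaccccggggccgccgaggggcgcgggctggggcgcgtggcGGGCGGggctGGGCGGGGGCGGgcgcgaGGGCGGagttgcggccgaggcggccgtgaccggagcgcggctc
ADAMTS19: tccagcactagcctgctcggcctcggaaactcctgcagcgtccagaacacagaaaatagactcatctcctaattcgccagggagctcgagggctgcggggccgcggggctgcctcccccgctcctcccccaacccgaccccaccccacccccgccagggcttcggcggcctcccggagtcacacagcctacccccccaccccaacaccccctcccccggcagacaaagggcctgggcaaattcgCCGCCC
MMP15: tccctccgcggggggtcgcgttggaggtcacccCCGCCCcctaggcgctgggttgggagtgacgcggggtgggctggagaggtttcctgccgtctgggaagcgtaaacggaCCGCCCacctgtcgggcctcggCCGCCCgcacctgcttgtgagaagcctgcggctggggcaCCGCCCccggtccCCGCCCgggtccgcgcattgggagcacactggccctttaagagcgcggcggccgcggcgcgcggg
MMP10: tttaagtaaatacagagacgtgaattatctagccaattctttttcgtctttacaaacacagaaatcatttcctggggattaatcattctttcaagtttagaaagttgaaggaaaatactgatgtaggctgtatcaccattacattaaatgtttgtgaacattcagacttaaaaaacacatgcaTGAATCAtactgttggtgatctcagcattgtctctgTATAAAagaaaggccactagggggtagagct
The ADAMTSL4 window held 4 GC boxes, beginning at -71, -61, -55 and -43 from the start, and its GC content was 83.6%. In the MMP15 window there were 5 GC boxes at -217, -139, -117, -78 and -65 with a GC content of 74.8%, and in the ADAMTS19 window there was 1 GC box at -6 with a GC content of 69.2%. The MMP10 window had no GC box, an AP-1 site at -67, a TATA box at -31 and a GC content of 34.4%. Across the 29 member windows the GC box was found in 23 (79.3%), compared with 42.6% of all 35116 promoter windows. The AP-1 site was found in 2 member windows (6.9%, compared with 6.57% of all) and the TATA box in 4 (13.8%, compared with 10.7%). The median GC content was 72.4% in the member windows and 58.0% in all windows. These are matches of letters, and binding was not measured.

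The expected counts, which are the authors' estimates of reads per gene, summed to between 4898287 and 5051448 per library. The floor that a count of 0 allows, 3 counts, lay between 0.594 and 0.612 CPM (counts relative to the library total), and such floors cover counting error only. Of the 44 genes, 34 passed the filter on low counts and were tested, namely 10 MMP, 16 ADAMTS, 5 ADAMTSL and 3 TIMP genes. Just inside the filter were ADAMTS17 with 71.3 and ADAMTS2 with 80.3 expected counts over the 6 libraries, and just outside were MMP9 with 47 and ADAMTS20 with 38. The cardiomyocyte markers were high, with a summed FPKM (expected counts scaled to gene length and library) of 17995 to 25344 per library. Fibroblast markers summed to 337 to 403 FPKM, smooth muscle and pericyte markers to 795 to 2005, and leukocyte and macrophage markers to 3.09 to 4.17, with CD14 at or below 3 counts in every library.

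To see which of these genes the cells used, levels were compared between genes by FPKM. MMP15, a membrane-type MMP, was the most abundant member at 198 ± 21.7 FPKM (SD, n = 6, all 3 groups together), or 34.7% of the summed FPKM of the 44 genes. TIMP1, a soluble inhibitor, followed at 74.8 ± 6.72 FPKM. With MMP23A and MMP23B taken as separate genes, these 2 genes stood apart. The lowest library of MMP15 was above the highest of TIMP1, and the lowest of TIMP1 was above the highest of MMP23B, the next gene. The MMP23 copies share sequence, as described below. With alcohol, MMP23B had 62.22 and 47.57 FPKM and MMP23A had 27.04 and 36.77, against 80.35 and 74.26 for TIMP1. From MMP23B downward, the range of each gene over the 6 libraries overlapped that of its neighbour in the order. A further 9 genes averaged 10 to 100 FPKM besides TIMP1. They were MMP23B at 44.6 ± 12.2, TIMP3 at 32.7 ± 3.04, MMP23A at 27.6 ± 9.34, TIMP2 at 22.6 ± 2.36, ADAMTS9 at 21.3 ± 4.39, MMP14 at 17.5 ± 1.18, ADAMTSL4 at 15.1 ± 3.88, ADAMTS8 at 12.9 ± 1.61 and MMP11 at 12.9 ± 1.94 FPKM (SD, n = 6). The remaining genes were lower, with 19 at 1 to 10 FPKM, MMP2 (9.98 ± 1.97) and ADAMTS19 (8.13 ± 2.61) among them, and 14 under 1 FPKM.

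**Figure D1:**
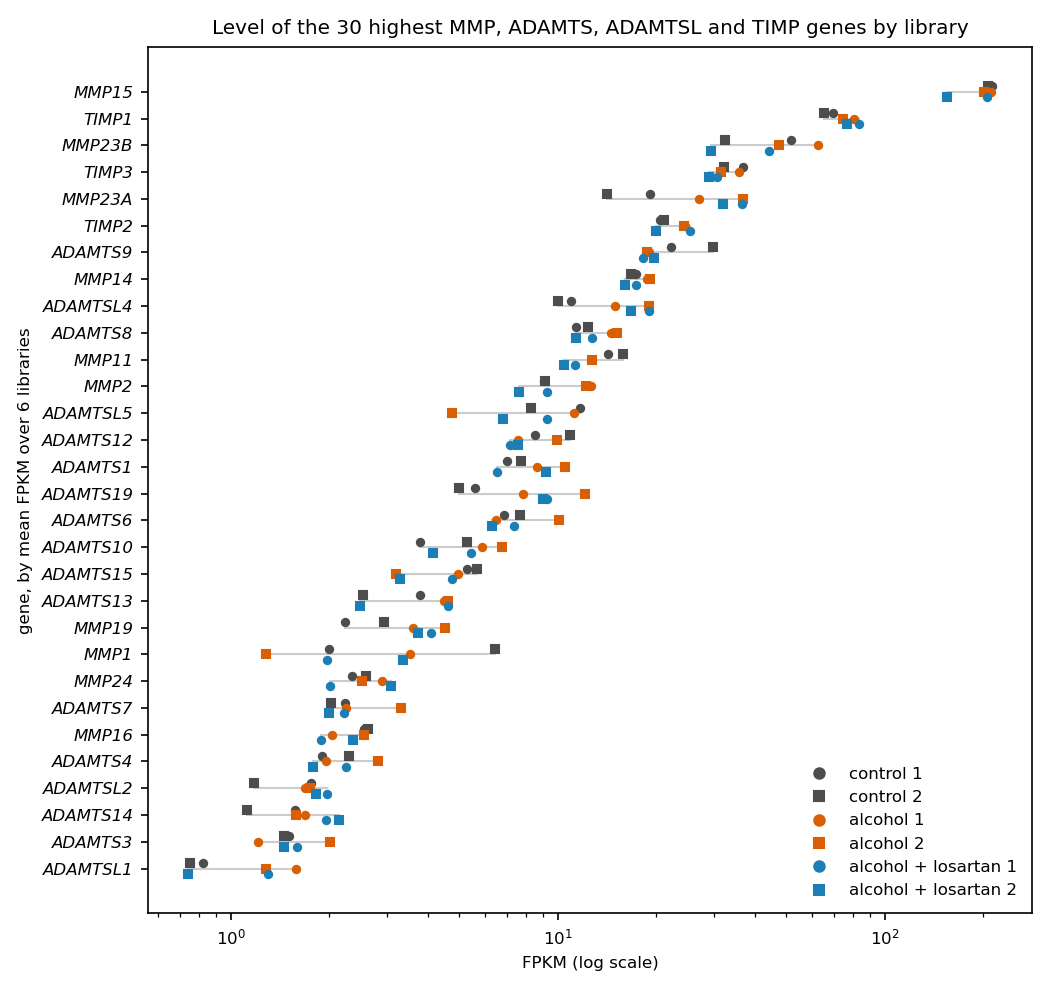
Level of the 30 members with the highest mean, with FPKM on a logarithmic axis and genes in order of their mean over 6 libraries. Circles are replicate 1 and squares replicate 2 of control (grey), alcohol (orange) and co-treated (blue) cells, and the line spans the 6 libraries. MMP15 (155 to 212 FPKM) lies above TIMP1 (65.1 to 83.1 FPKM) in every library, and the genes below them overlap their neighbours.

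Several enzymes with a large part in inflamed or remodelling tissue were close to the detection limit. MMP9, the gelatinase of leukocytes, had at most 11 expected counts in a library, whereas MMP2, the gelatinase of mesenchymal cells, had 134 to 228. MMP1, the interstitial collagenase, was listed at 13 to 67 counts and varied more between the replicates of a group than between groups, with 21 and 67 counts in the control libraries, 37 and 13 with alcohol and 20 and 35 in the co-treated cells. TIMP4, an inhibitor known from heart tissue, had at most 2 counts. MMP10 and ADAMTS16 did not exceed 3 counts, MMP27 did not exceed 2 and MMP21 did not exceed 1, so differences in these genes were not detectable at this depth. MMP3, MMP7, MMP8, MMP12, MMP13, MMP17, MMP20 and MMP26 were not among the symbols listed in the series table, so no level is given for them.

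By family, the MMP genes summed to 334 and 310 FPKM in the control libraries, 359 and 341 with alcohol and 335 and 264 in the co-treated libraries. Without MMP15 the sums were 122 and 104, 147 and 140, and 130 and 109. In both MMP sums the alcohol libraries lay above the control libraries, and without MMP15 the co-treated libraries overlapped the control libraries. Both sums include MMP23A and MMP23B. The MMPs outside the classical groups, that pair among them, summed to 73.2 and 49.9 FPKM in control and 93.5 and 88.8 with alcohol. The membrane-type MMPs overlapped, at 235 and 228 FPKM against 235 and 225, as did MMP1. The gelatinases were higher with alcohol, and the stromelysins were lower. A sum without the MMP23 pair was not made. The TIMP genes summed to 127 and 119 FPKM in control, 141 and 130 with alcohol and 139 and 126 in the co-treated cells. The ratio of summed MMP to summed TIMP FPKM was 2.63 and 2.61 in control, 2.55 and 2.61 with alcohol, and 2.41 and 2.1 with co-treatment. The lowest ratio and the lowest MMP sum belonged to the co-treated replicate 2, in which MMP15 was at 155 FPKM and no lower than 201 in the other libraries. These sums are transcripts per length, not enzyme activity, and in bulk RNA fewer cells of a type and less RNA per cell cannot be told apart.

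The first comparison asked whether alcohol alone altered these genes. No member was called in alcohol against control at an adjusted p under 0.05 (edgeR quasi-likelihood test, Benjamini-Hochberg adjustment over 14926 genes), where 0.067% of all genes tested were called. DESeq2 called 1 member, ADAMTS19, and limma on log2(FPKM + 1) called 0. Over all genes the alternative settings called 0 to 220, and the share by DESeq2 alone is not given here. At an unadjusted p under 0.05 there were 7 of 34 members (20.6%), against 11% of all genes. Of these, 6 were higher and 1 was lower, where 5.27% of all genes were higher and 5.78% lower by the same rule. The median log2 fold change of the 34 members was 0.13, with 22 higher and 12 lower, against a median of -0.0033 for all genes. In 18 members the alcohol and control libraries did not overlap in CPM, 13 of them with alcohol higher, and of all genes tested 43.8% did not overlap and 22% were higher without overlap.

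The 5 members with the smallest p-values were ADAMTS19, ADAMTSL4, MMP23A, ADAMTS9 and MMP2. ADAMTS19 belongs to the ADAMTS enzymes linked to microfibrils and is known for a part in heart valve formation (chr5:129460298-129738683, GRCh38.p14). Its level was 29.7 and 25.9 CPM in control and 41.1 and 60.1 CPM with alcohol. Both alcohol libraries were higher than both controls, and they differed from each other by more than the controls did (log2 fold change 0.86, SE 0.19, adjusted p = 0.112 by edgeR). ADAMTSL4, which binds fibrillin and is known from inherited lens dislocation (chr1:150549408-150560937), was at 48.9 and 43.6 CPM in control and at 65.4 and 79.2 CPM with alcohol. Again the groups did not overlap, with a log2 fold change of 0.64 (SE 0.14, adjusted p = 0.119 by edgeR). ADAMTS9, a versican- and aggrecan-cleaving enzyme (chr3:64515654-64688000), had 169 and 222 CPM in control and 143 and 133 CPM with alcohol. Unlike the other 6 members with an unadjusted p under 0.05, it was lower with alcohol (log2 fold change -0.50, SE 0.14, adjusted p = 0.18 by edgeR).

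**Figure D2:**
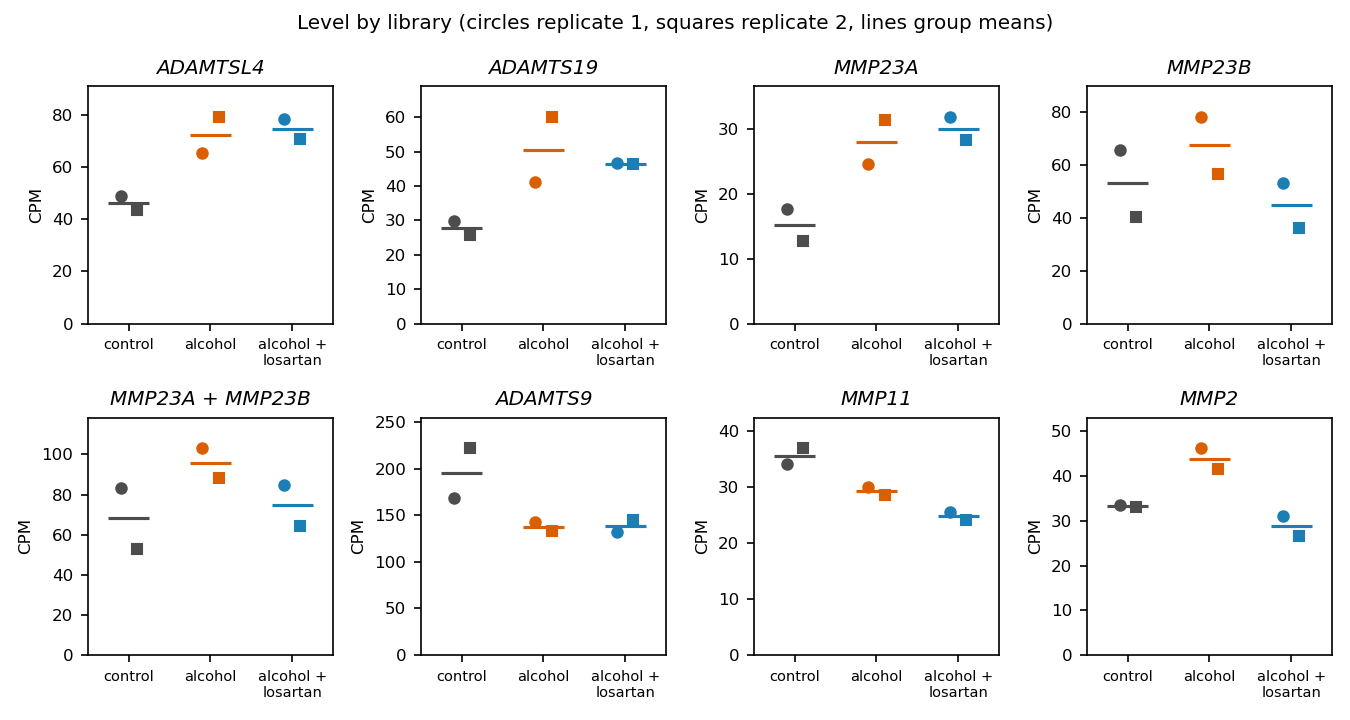
CPM in each library for 7 members and for MMP23A and MMP23B summed, with each axis starting at 0. Circles are replicate 1, squares replicate 2 and lines the group means, and ADAMTSL4, ADAMTS19 and MMP23A are higher in all 4 alcohol-exposed libraries than in the 2 controls, whereas ADAMTS9 and MMP11 are lower.

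MMP2, its activator and the inhibitors were read together. Pro-MMP2 is activated at the cell surface by MMP14, and TIMP2 takes part in that complex. MMP2 (chr16:55478830-55506691) was at 33.6 and 33.2 CPM in control and 46.2 and 41.7 CPM with alcohol, a log2 fold change of 0.40 (SE 0.15, unadjusted p = 0.0226, adjusted p = 0.354 by edgeR). MMP14 had 65.3 and 61.3 CPM in control and 69.4 and 67.2 CPM with alcohol, and TIMP2 had 78.4 and 79 CPM in control and 92.3 and 87.1 CPM with alcohol. For all 3 genes the alcohol libraries lay above the controls, by a log2 fold change of 0.11 for MMP14 (adjusted p = 0.814) and 0.19 for TIMP2 (adjusted p = 0.665), both by edgeR. TIMP1, at 65.3 and 59.9 CPM in control and 74.7 and 65.4 CPM with alcohol, had a log2 fold change of 0.16 (SE 0.13, adjusted p = 0.71 by edgeR). TIMP3, the inhibitor that stays bound to the matrix, overlapped between the groups (212 and 181 CPM against 203 and 169 CPM). MMP15 overlapped too, at 943 and 896 CPM in control and 930 and 837 CPM with alcohol.

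The next comparison asked what losartan added to alcohol. No member was called in co-treated against alcohol cells by edgeR, DESeq2 or limma, and 0.0134% of all genes were called by edgeR. At an unadjusted p under 0.05 there were 4 members (11.8%), all lower in the co-treated cells, against 5.55% of all genes in either direction and 2.71% lower. They were MMP2, MMP23B, ADAMTS8 and ADAMTSL1. The median log2 fold change of the members was -0.12, with 23 of 34 lower, against 0.0023 for all genes. The libraries did not overlap in 14 members (33.6% of all genes), and the co-treated cells were lower in 10 of those 14 (16.2% of all genes).

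MMP2 had the smallest p-value of the members here. It stood at 31 and 26.6 CPM in the co-treated cells, below 46.2 and 41.7 CPM with alcohol and also below the controls at 33.6 and 33.2 CPM. The log2 fold change from alcohol was -0.61 (SE 0.16, unadjusted p = 0.00179, adjusted p = 0.587 by edgeR). It was negative in 15 of 15 alternative settings, from -0.72 to -0.5. These settings reuse the same libraries, which did not overlap, so the sign could hardly change. The comparison shares its alcohol libraries with the one of alcohol against control. Opposite signs in them, of MMP2, of other members or of the medians, are therefore not independent. MMP14 was at 61.5 and 58.1 CPM, below the alcohol libraries (log2 fold change -0.19, adjusted p = 0.919 by edgeR). ADAMTS8, which like other members of its group can cut aggrecan, had 50.5 and 46.1 CPM in the co-treated cells. It had 60.3 and 59.7 CPM with alcohol and 47.7 and 50.8 CPM in control. Its log2 fold change from alcohol was -0.31 (SE 0.13, adjusted p = 0.888 by edgeR). ADAMTSL1, at 7.01 and 5.77 CPM in the co-treated cells and 10.1 and 9.88 CPM with alcohol, had a log2 fold change of -0.64 (SE 0.28, adjusted p = 0.895 by edgeR). ADAMTS7, a cartilage oligomeric matrix protein-cleaving enzyme, was the fifth by p-value, at 12.2 and 11.1 CPM against 13 and 18 CPM (log2 fold change -0.41, adjusted p = 0.915 by edgeR).

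**Figure D3:**
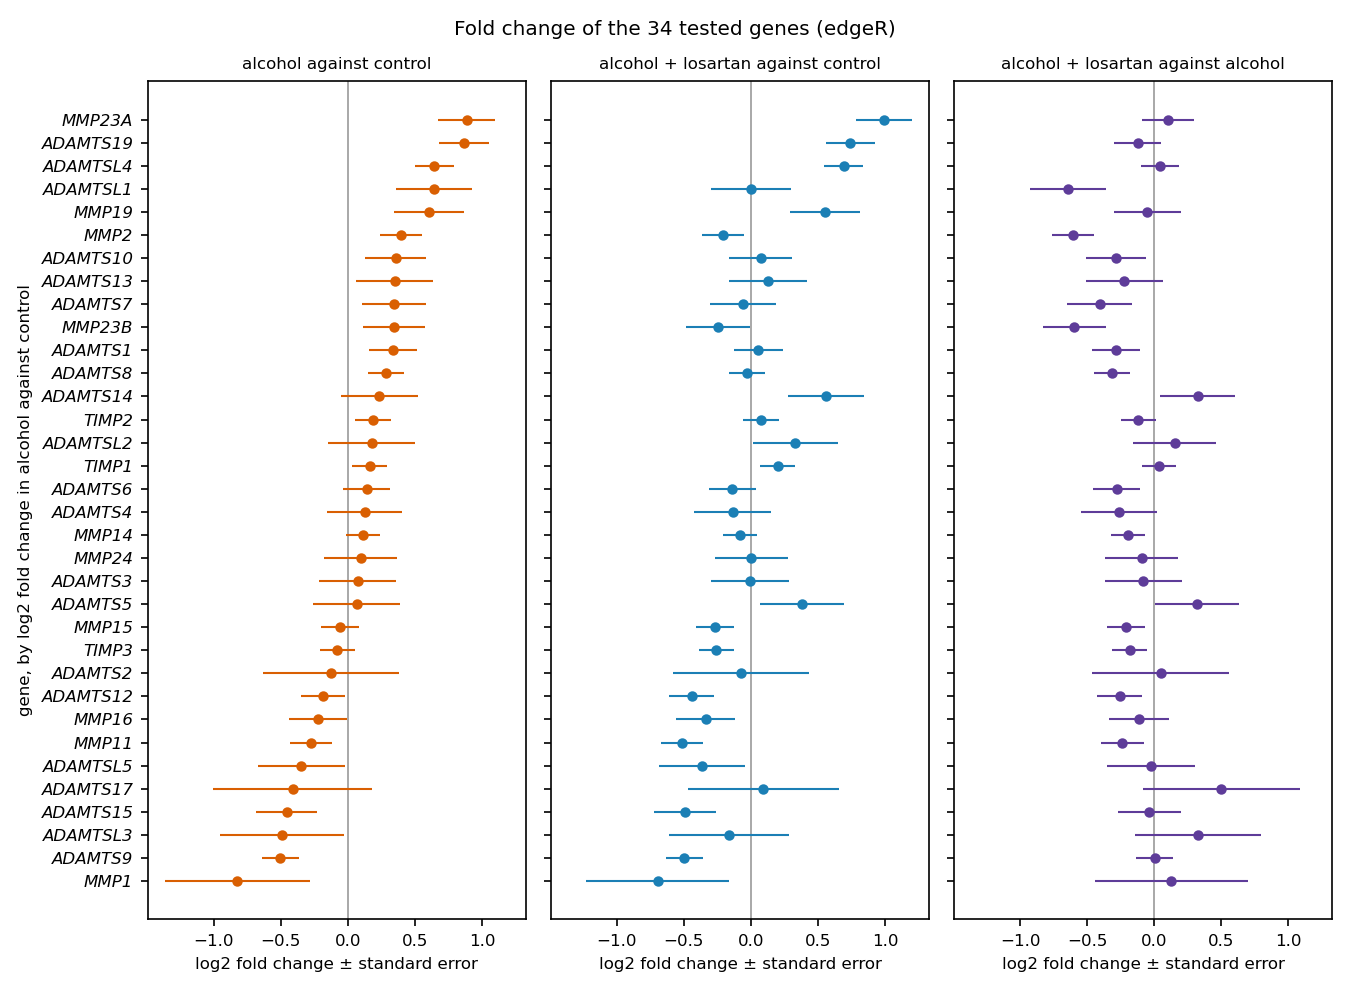
Log2 fold change (edgeR) with its standard error for the 34 tested members in alcohol against control, co-treated against control and co-treated against alcohol, in the order of the first panel. ADAMTSL4, ADAMTS19 and MMP23A lie to the right of 0 in both panels against control, and MMP2 lies at 0.40, -0.21 and -0.61.

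Against control, the co-treated cells again had no member called, where 0.362% of all genes were called by edgeR. DESeq2 called 1 member, ADAMTSL4, and limma on log2(FPKM + 1) called 0. Over all genes the alternative settings called 2 to 184, and the share by DESeq2 alone is not given here. At an unadjusted p under 0.05 there were 6 members (17.6%), against 12.6% of all genes. Of these, 3 were higher and 3 lower (6.26% and 6.37% of all genes). The members' median log2 fold change was -0.04, with 20 of 34 lower, and that of all genes was -0.0017. Groups did not overlap in 16 members, and in 43.3% of all genes. ADAMTSL4 was at 78.5 and 70.8 CPM in the co-treated cells (log2 fold change 0.69, SE 0.14, adjusted p = 0.0645 by edgeR) and ADAMTS19 at 46.7 and 46.3 CPM (log2 fold change 0.74, SE 0.19, adjusted p = 0.108). Both stayed above the controls, and against alcohol alone their log2 fold changes were 0.05 and -0.12. ADAMTS9 was at 132 and 145 CPM, below both controls (log2 fold change -0.50, SE 0.14, adjusted p = 0.138 by edgeR). MMP11, the stromelysin that is activated inside the cell by furin, was at 25.4 and 24.1 CPM, compared with 34 and 36.8 CPM in control and 30 and 28.5 CPM with alcohol. Its 3 groups did not overlap, and the log2 fold change of the co-treated cells from control was -0.52 (SE 0.16, adjusted p = 0.188 by edgeR). TIMP1 (74.1 and 69.6 CPM) and TIMP3 (167 and 161 CPM) had adjusted p-values of 0.578 and 0.435 by edgeR.

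The 4 libraries of alcohol-exposed cells, with and without losartan, were also compared together with the 2 controls. All 3 comparisons with control share these control libraries and are not independent of each other. Here 2 of 34 members were called (5.88%), both higher, and 0.556% of all genes tested were called by edgeR (0.322% of all genes higher). DESeq2 called 4 members and limma on log2(FPKM + 1) called 0. Over all genes the alternative settings called 0 to 407, and the share by DESeq2 alone is not given here. ADAMTSL4 rose by a log2 fold change of 0.67 (SE 0.13, adjusted p = 0.0408 by edgeR), from 43.6 to 48.9 CPM in control to 65.4 to 79.2 CPM, and it was higher in 4 of 4 alcohol-exposed libraries. MMP23A was called with a log2 fold change of 0.94 (SE 0.19, adjusted p = 0.0464 by edgeR) from the counts assigned to it, but all of its transcript sequence is shared with MMP23B and the sum of the pair was not called. ADAMTS19 lay just outside the threshold, at a log2 fold change of 0.80 (SE 0.16, adjusted p = 0.05003 by edgeR), and ADAMTS9 had -0.50 (SE 0.12, adjusted p = 0.0728). MMP11 had a log2 fold change of -0.40 (SE 0.13, adjusted p = 0.204 by edgeR). At an unadjusted p under 0.05 there were 8 members, 23.5% against 13.5% of all genes. Of these, 4 were higher and 4 lower (6.48% and 7.05% of all genes). Groups did not overlap in 10 members, and in 23.2% of all genes. ADAMTSL4 was no longer called without control replicate 1, control replicate 2, alcohol replicate 2 or either co-treated replicate, and its adjusted p was 0.00957 to 0.256 over 14 alternative settings. MMP23A lost its call without control replicate 2, alcohol replicate 2 or either co-treated replicate, with an adjusted p of 0.0113 to 0.307 over 13 settings, and ADAMTS19 was called in 4 of 14. All 3 genes kept their direction in every setting run. Their groups did not overlap, so leaving out a library could hardly reverse them, and the other settings reuse the same libraries.

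**Figure D4:**
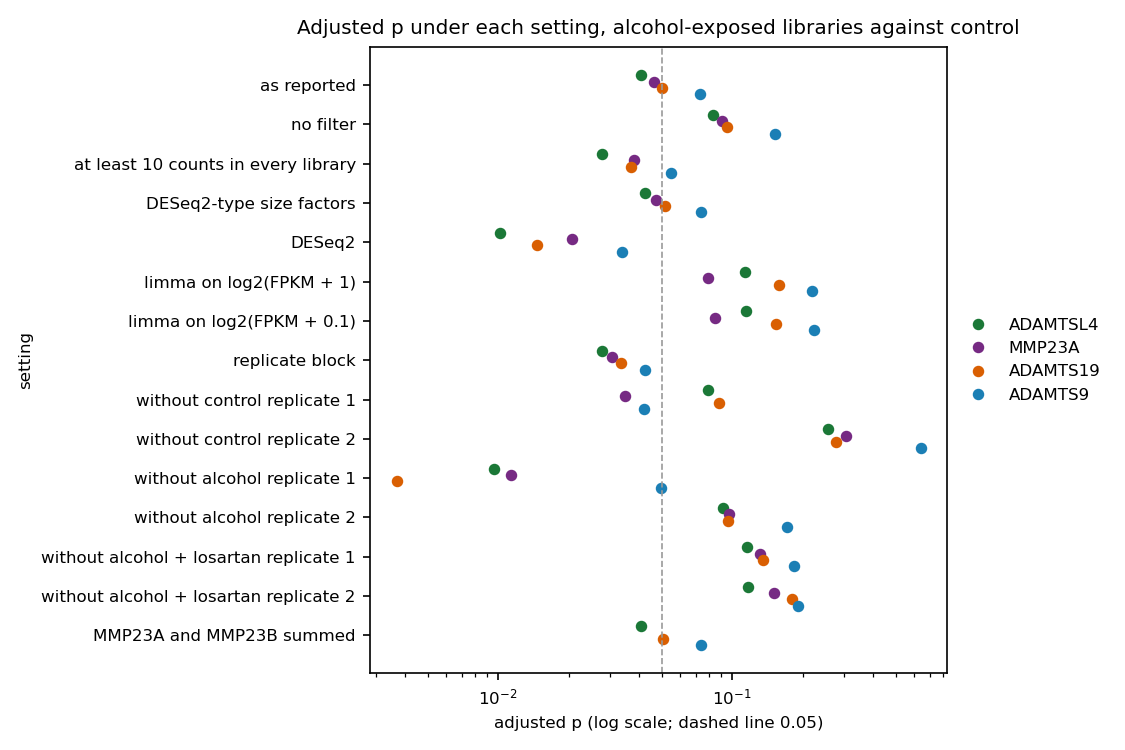
Adjusted p (logarithmic axis, dashed line at 0.05) of ADAMTSL4, MMP23A, ADAMTS19 and ADAMTS9 for the 4 alcohol-exposed libraries against control, as reported and under each alternative setting. ADAMTSL4 and MMP23A lie left of the line in 6 alternatives each, and ADAMTS19 and ADAMTS9 in 4 each.

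MMP23A and MMP23B are nearby copies of a membrane-bound MMP gene on chromosome 1 (chr1:1699939-1701808 and chr1:1632173-1634654), of which RefSeq annotates MMP23A as a transcribed pseudogene and MMP23B as protein-coding. All 968 stretches of 50 bases in the MMP23A transcripts also occur in MMP23B transcripts, and 38% of the 2546 stretches of MMP23B occur in MMP23A. The counts assigned to MMP23A gave 17.6 and 12.7 CPM in control, 24.5 and 31.4 CPM with alcohol and 31.8 and 28.2 CPM in the co-treated cells, higher in all 4 alcohol-exposed libraries than in the controls. MMP23A took 21% and 23.9% of the counts of the pair in control, 23.8% and 35.7% with alcohol and 37.4% and 43.8% in the co-treated cells. The share was above both controls in 3 of the 4 alcohol-exposed libraries, and in alcohol replicate 1 it lay between the controls. Summed, the pair had 83.3 and 53 CPM in control, 103 and 88.1 CPM with alcohol and 84.9 and 64.4 CPM in the co-treated cells. The sum was higher in both alcohol libraries than in both controls, with a log2 fold change of 0.48 (SE 0.19, adjusted p = 0.371 by edgeR), and for all alcohol-exposed libraries against control it was 0.31 (SE 0.17, adjusted p = 0.461). The sum was therefore not called. The value of MMP23A may depend on how reads were split between the copies, which was not tested. The opposite value of MMP23B in the co-treated cells against alcohol, a log2 fold change of -0.59 (SE 0.23, adjusted p = 0.857 by edgeR), was -0.35 (SE 0.19, adjusted p = 0.909) for the sum.

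The called ADAMTSL4 also overlaps other transcripts. Of its 50-base stretches, 11.5% are antisense to a transcript of another gene, against 1.52% for ADAMTS19 and 1.18% for ADAMTS9, and the strand of the libraries is not given in the sources used here. The antisense gene ADAMTSL4-AS1 had 2.15 to 12.3 expected counts per library, compared with 217 to 401 for ADAMTSL4. ADAMTS19-AS1 had 1 to 14 counts against 129 to 304 for ADAMTS19. Each of the TIMP1, TIMP3 and TIMP4 genes lies within or beside a synapsin gene, and SYN1 had 42 to 69 counts against 298 to 370 for TIMP1, whereas SYN3 had at most 6 against 810 to 1034 for TIMP3.

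By role, the members called by edgeR were 1 of the 5 ADAMTS-like genes and 1 of the MMPs outside the classical groups. None of the membrane-type MMPs (4 tested), the proteoglycan-cleaving ADAMTS (6 tested), the procollagen-processing ADAMTS (3 tested), the fibrillin-associated ADAMTS (4 tested) or the TIMPs (3 tested) was called by edgeR in any of the 4 comparisons, whereas DESeq2 called ADAMTS19, a fibrillin-associated enzyme, and ADAMTS9, a proteoglycan-cleaving enzyme, in the alcohol-exposed libraries against control. The procollagen-processing enzymes ADAMTS2, ADAMTS3 and ADAMTS14 summed to 3.19 to 4.34 FPKM in the 6 libraries. For the proteoglycan-cleaving group the sum was 48.8 and 58.5 FPKM in control, 49.8 and 51.3 with alcohol and 45.6 and 46.6 in the co-treated cells. The fibrillin-associated group, ADAMTS19 included, summed to 16.4 and 18.5 FPKM in control, 20.4 and 29.3 with alcohol and 22.5 and 19.8 in the co-treated cells. Without ADAMTS19 the sum was 10.9 and 13.5 FPKM in control, 12.6 and 17.2 with alcohol and 13.3 and 10.8 in the co-treated cells, and this sum overlapped between the groups. Of its genes, ADAMTS6 and ADAMTS17 overlapped between alcohol and control. ADAMTS10 did not, at 13.7 and 19.7 CPM in control and 20.4 and 22.3 CPM with alcohol (adjusted p = 0.623 by edgeR).

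Genes that act on or with the members were read from lists of other genes. Of 18 activators and inhibitors, all tested, 1 was called, TFPI2, a secreted serine protease inhibitor of the extracellular matrix. TFPI2 was at 15.1 and 11.4 FPKM in control, 27.3 and 28.4 with alcohol and 38.3 and 36.1 in the co-treated cells. It rose in alcohol against control (log2 fold change 1.03, adjusted p = 0.0309 by edgeR) and in the co-treated cells against control (1.43, adjusted p = 0.00241). Of 22 substrates 16 were tested and 0 called by edgeR in any comparison. At an unadjusted p under 0.05, 5 of 16 were lower and 2 higher in co-treated cells against control (6.37% and 6.26% of all genes). In alcohol against control 1 was lower and 1 higher (5.78% and 5.27%), and in co-treated against alcohol 0 (5.55% in either direction). For the 4 alcohol-exposed libraries against control, 3 substrates were lower and 2 higher (7.05% and 6.48%). Among them the microfibril protein FBN2 was at 141 and 143 FPKM in control, 111 and 102 with alcohol and 104 and 91.9 in the co-treated cells, with an adjusted p of 0.0787 by edgeR for the last group against control. DESeq2 called FBN2 and FN1 among the substrates in at least 1 comparison. The share of all genes called by DESeq2 alone is not given here, for this list or those below. By edgeR, DESeq2 or limma, no gene was called among 12 ADAM sheddases and their kin or 5 tested astacin proteases and enhancers. The 2 relatives THSD4 and PAPLN were not called either. In the 4 alcohol-exposed libraries against control, 4 of the 12, 1 of the 5 and 1 of the 2 had an unadjusted p under 0.05. The share of all genes by that rule was 13.5%. Of the 4 ADAM genes 2 were higher and 2 lower, the astacin gene was lower and the relative was higher.

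Markers of other cell types were read in the same libraries. All 6 smooth muscle and pericyte markers were lower in alcohol than in control, and their sum was 2005 and 1781 FPKM in control, 1516 and 795 with alcohol and 1041 and 1103 in the co-treated cells. Among them ACTA2 fell in the alcohol-exposed libraries against control, by 1.14 on the log2 scale (adjusted p = 0.0127 by edgeR). Fibroblasts are a known source of MMP2 and TIMP1, and their markers overlapped between the groups (373 and 337, 403 and 369, and 382 and 362 FPKM) and 0 of 8 tested were called by edgeR, DESeq2 or limma, with 1 lower in the alcohol-exposed libraries at an unadjusted p under 0.05. Cardiomyocyte markers summed to 25344 and 24933 FPKM in control, 24380 and 17995 with alcohol and 20901 and 22700 in the co-treated cells. This sum and the smooth muscle sum were lower in all 4 alcohol-exposed libraries than in the controls. Of the 10 cardiomyocyte markers, 6 were lower and 4 higher in that comparison, and 0 were called by edgeR. MYL7, the highest of them, had a log2 fold change of -0.52 (adjusted p = 0.126 by edgeR). DESeq2 called MYL7, and ACTA2 and RGS5 of the smooth muscle list, in at least 1 comparison. Alcohol replicate 2 had the lowest sum of both the cardiomyocyte and the smooth muscle markers. The epicardial markers summed to 10.7 and 8.11 FPKM in control, 10.8 and 11.4 with alcohol and 13.6 and 16.5 in the co-treated cells, and the endoderm and liver markers, with FOXA2 at or below 3 counts, to 38.5 and 36.7, 49.4 and 49.5, and 46.7 and 48.2. Both sums were higher in all 4 alcohol-exposed libraries than in the controls, as were ADAMTSL4 and ADAMTS19. The epicardial sum was higher by as little as 10.8 against 10.7 FPKM. TBX18, the only marker of that list tested, made up most of its sum, at 9.14 and 6.87 FPKM in control. It was at 9.98 and 9.92 FPKM with alcohol and 12.3 and 15 in the co-treated cells. Of 3 tested endoderm and liver markers, 2 were higher and 1 lower in the alcohol-exposed libraries. No marker of either list was called by edgeR, and DESeq2 called TBX18 of the epicardial list in at least 1 comparison. By edgeR, TBX18 had a log2 fold change of 0.72 in co-treated against control cells (adjusted p = 0.0787). Endothelial markers summed to 19.7 to 26.6 FPKM and overlapped between groups, with KDR called by DESeq2 in at least 1 comparison. By edgeR, KDR had a log2 fold change of 0.86 in co-treated against control cells (adjusted p = 0.05019). The pluripotent markers summed to 10.4 to 19.3 FPKM and overlapped too. The part of these cells in the values of ADAMTSL4, ADAMTS19, ADAMTS9 and MMP2 was not tested.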

How the data were processed

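RNA of 6 libraries, 2 per group by the treatment in the labels, was analysed for the 44 genes whose symbol fits the family names. The members and gene lists were chosen with earlier results of these data known. Per library, the files deposited by the authors give each gene's expected count, FPKM and transcript length, and 33.9% of the expected counts are not whole. The submitters' processing notes name HISAT2 2.0.4, Bowtie2 2.2.5, RSEM 1.2.12 and hg38, without their roles. The strand of the libraries is not given in the sources used here. Genes left out of a library's table were set to 0. Expected counts were rounded and tested with edgeR 4.0.16 (quasi-likelihood F test, two-sided, TMM, filterByExpr, all 6 libraries in 1 fit with 3 group means, Benjamini-Hochberg over 14926 genes, call at 0.05) in R 4.3.3. The CPM are TMM-scaled. The test was tested on simulated data. Alternatives were DESeq2 1.42.0, no filter, limma 3.58.1 on log2(FPKM + 1) or log2(FPKM + 0.1), size factors of the DESeq2 type, at least 10 counts in every library, only the groups compared, the replicate number as a block, each library left out, and, chosen after seeing the data, MMP23A and MMP23B summed. Named members are the TIMP genes, MMP2, MMP14, the 12 with the highest mean FPKM, the 5 smallest p-values of each comparison and the members nearest the filter. Others are named with counts where a role is described. TFPI2, FBN2, FN1, ACTA2, RGS5, MYL7, TBX18, KDR, MMP1 and ADAMTS10 were picked out after their values were seen. Gene positions and promoters are from RefSeq on GRCh38.p14, and shared 50-base stretches were counted in GENCODE v29 transcripts. The totals of 4898287 to 5051448 expected counts set a floor of 3 counts, and intervals and floors cover counting error only.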

Additional observations from a re-analysis of the deposited data

How the results depend on the processing

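No member was called in co-treated against alcohol cells under any of 15 alternatives. In alcohol against control, where 0 members were called, DESeq2 called 1 and leaving out a library gave 0 to 3, the 3 being ADAMTS19, ADAMTSL4 and MMP23A without alcohol replicate 1. In co-treated against control cells, with 0 called as reported, at least 10 counts in every library gave 1, DESeq2 1, only the groups compared 3, and leaving out a library 0 to 3, with 3 without alcohol replicate 1 or replicate 2. For the 4 alcohol-exposed libraries against control, with 2 called, no filter gave 0, limma 0 with either pseudocount, DESeq2 4, MMP23A and MMP23B summed 1, and leaving out a library 0 to 4. The 4 without alcohol replicate 1 were ADAMTS19, ADAMTS9, ADAMTSL4 and MMP23A, and the 0 came without control replicate 2, alcohol replicate 2 or either co-treated replicate. Where 1 library was left in a group, it was assumed to vary like the other groups. Calls over all genes ranged from 0 to 220 (10 as reported), 0 to 24 (2), 2 to 184 (54) and 0 to 407 (83) in the order alcohol against control, co-treated against alcohol, co-treated against control and all alcohol-exposed libraries against control. With the replicate number as a block, 0, 0, 2 and 4 members were called in that order, the 2 being ADAMTSL4 and MMP23A. Whether the same numbers mark a pairing is not stated in the sources used here. Deviations from the group means correlated between same-numbered libraries at 0.114, -0.016 and 0.041 over 14926 genes. With 2 libraries per group such values cannot exclude a pairing. The causes of these changes were not tested. ADAMTSL4, MMP23A, ADAMTS19 and ADAMTS9 kept their direction under every alternative in the 3 comparisons with control. Their groups did not overlap there, so leaving out a library could hardly reverse them, and the other settings reuse the same libraries. Without the filter all 44 members were tested and 0 were called in each of the 4 comparisons, with 8, 4, 7 and 7 at an unadjusted p under 0.05 in the order above. The shares of all genes without the filter are not given here, so these counts cannot be set against them.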
